A study of Mus musculus with 18 samples.

Results

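The replacement of CHIR99201 by Wnt was examined in 6 of the 18 RNA sequencing libraries of the series. These were the 3 libraries titled LGK974_WNT, called WNT 1, WNT 2 and WNT 3 here, and the 3 titled LGK_CHIR99201, called CHIR 1, CHIR 2 and CHIR 3. They were chosen by title, and no measured value entered the choice. The cells came from mouse lung and were labelled alveolar type 2. In all groups they had been cultured with CHIR99201 for 19 days. In the WNT and CHIR groups they were then kept with LGK974, per their titles. In the WNT group CHIR99201 was taken away and Wnt was given, and in the CHIR group CHIR99201 was kept. Per the labels the treatments lasted 8 to 12 h. The labels do not say which Wnt was given, its dose, or the strain, age or genotype of the mice. Whether the replicates were separate cultures or mice is not stated either. The p-values thus take the spread among libraries as their yardstick, and the labels do not say how much of that spread is technical. Xist counts, given below, set CHIR 3 apart from CHIR 1 and CHIR 2. The other 12 libraries came from cells given LGK974 with a Fzd5 agonist or a Fzd6 agonist, and from cells 24 h or 48 h after CHIR99201 withdrawal. They entered the fit only as further groups that share the estimate of spread.

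A Wnt ligand binds a Frizzled receptor and an LRP coreceptor at the cell surface. This stops the destruction complex, in which the kinase GSK3 marks beta-catenin for degradation, and beta-catenin then activates genes together with TCF and LEF factors. LGK974 blocks Porcupine, the enzyme that makes secreted Wnt proteins active, and so removes the cells' own Wnt signal. The labels call CHIR99201 a Wnt agonist, and the small molecules known as CHIR in cell culture inhibit GSK3 itself, inside the cell and below the receptor. GSK3 also phosphorylates many proteins outside the Wnt pathway. Alveolar type 2 cells make surfactant, act as progenitors of the alveolus and can become the thin alveolar type 1 cells that carry gas exchange. Wnt signals are known to keep type 2 cells in their progenitor state.

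The 6 libraries held 34458610 to 52030066 counts over genes, and 3 counts in a library equalled a level of 0.0577 to 0.0871 CPM (counts scaled to the depth of the library). The WNT libraries had a median correlation of 0.98 to 0.982 with the other libraries of the series. This median was lower for the CHIR libraries, at 0.927 for CHIR 1, 0.966 for CHIR 2 and 0.945 for CHIR 3. Pairs of CHIR libraries also differed more than pairs of WNT libraries. The chi-square over its degrees of freedom was 348 to 456 within CHIR, against 13.3 to 30.6 within WNT. Xist, the RNA of the inactive X chromosome, had 265, 523 and 371 counts in the WNT libraries, against 812 and 530 counts in CHIR 1 and CHIR 2 and 1 count in CHIR 3. Sftpc, the type 2 surfactant gene, took 4.98%, 4.03% and 4.19% of counts in the WNT libraries, against 9.88%, 4.02% and 9.53% in CHIR 1, CHIR 2 and CHIR 3. All 22 genes of the alveolar type 2 list were tested, and no marker of that list was missing from the group labelled with it. Defining markers of mesenchymal, endothelial and neuroendocrine cells summed to at most 1.75 CPM per list in any WNT library and 1.94 CPM in any CHIR library. Haematopoietic markers summed to 8.38, 13.6 and 11.1 CPM in WNT, against 9.0, 5.0 and 6.79 CPM in CHIR. Basal markers reached 2.61 CPM in WNT and 14.8 CPM in CHIR 3, and gut markers 3.55 CPM in WNT and 8.74 CPM in CHIR 3. In bulk RNA, fewer cells of a type and less RNA per cell cannot be told apart.

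With Wnt in place of CHIR99201, 8 of 12 tested genes for serine, glycine, proline and one-carbon synthesis, 7 of 20 aminoacyl-tRNA synthetase genes and 13 of 24 genes for building ribosomes fell, and none of them rose. Of 21 genes typical of alveolar type 1 cells 3 rose and none fell. Of 16497 genes tested with edgeR's quasi-likelihood test, 317 (1.92%) were called at a Benjamini-Hochberg adjusted p under 0.05. Of these, 144 (0.873%) were higher and 173 (1.05%) were lower in WNT, and 2397 genes had an unadjusted p under 0.05. All 317 had WNT values entirely above or entirely below the CHIR values, and lay in the same direction against each CHIR library. Over all tested genes, 13.5% had all WNT values above and 13.5% all below the CHIR values. The median log2 fold change of all tested genes was -0.04. The number called depended on single libraries. It was 50, 34 and 29 without WNT 1, WNT 2 and WNT 3, and 147, 402 and 677 without CHIR 1, CHIR 2 and CHIR 3. When Fzd6 agonist 1 and 24 h withdrawal 2, which lie outside the comparison, were left out of the fit, 2599 genes were called, and these included all 317. Like CHIR 3, both had few Xist counts (0 and 4, against 1 in CHIR 3). Both also had many counts of the club cell gene Scgb1a1 (3085 and 1095, against 2160 in CHIR 3). Leaving them out took their deviation from the shared spread, while CHIR 3 stayed in the comparison.

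Against a single CHIR library, taken to vary like the other groups, calls were far from even. WNT differed from CHIR 1 alone in 2784 genes (16.9%), 10.4% of all tested genes being higher and 6.51% lower. It differed from CHIR 2 alone in 120 genes (0.727%), 0.479% higher and 0.249% lower. It differed from CHIR 3 alone in 52 genes (0.315%), 0.103% higher and 0.212% lower. Only 9 genes (0.0546%) passed in the same direction against each of the 3, with 3 higher (0.0182%) and 6 lower (0.0364%). Over the 16 libraries left without Fzd6 agonist 1 and 24 h withdrawal 2, 1423 of 16830 genes (8.46%) did so, 3.87% higher and 4.59% lower. Of the 317 genes called 3 against 3, 307 were among them, 139 higher and 168 lower. Without any 1 WNT library, the 18-library fit called no gene against CHIR 3 alone, while 1988 to 2150 genes had an unadjusted p under 0.05.

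Of the 9 genes that passed against each CHIR library alone, 6 fell. Steap1, a membrane protein of the metalloreductase family, lay at chr5:5736317-5749326 on the minus strand (GRCm38, GENCODE M21). It measured 2.66, 4.02 and 3.38 CPM in WNT 1, 2 and 3, against 53.1, 28.2 and 32.0 CPM in CHIR 1, 2 and 3. Every WNT value was below every CHIR value, and Steap1 fell by 3.49 on the log2 scale (SE 0.34, adjusted p = 0.000476, edgeR). The other 5 that fell were Phgdh, Psat1 and Shmt2, described with serine synthesis, Srm, described with ribosome building, and Car2. Car2, a cytosolic carbonic anhydrase at chr3:14886273-14900770 on the plus strand, measured 41.9, 24.9 and 27.8 CPM in WNT, against 286, 169 and 119 CPM in CHIR. The groups were apart, and the log2 fold change was -2.60 (SE 0.327, adjusted p = 0.00352).

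The remaining 3 rose. Fbp1, the fructose bisphosphatase of gluconeogenesis, at chr13:62864753-62888282 on the minus strand, measured 335, 264 and 386 CPM in WNT, against 32.3, 16.2 and 91.8 CPM in CHIR. CHIR 3 was the highest CHIR library and still below every WNT library, and the log2 fold change was 2.81 (SE 0.454, adjusted p = 0.00893). Mlc1, a membrane protein known from the astrocytes of the brain, at chr15:88955884-88979007 on the minus strand, measured 69.9, 65.0 and 71.7 CPM in WNT, against 12.3, 20.1 and 21.8 CPM in CHIR. Its log2 fold change was 1.93 (SE 0.239, adjusted p = 0.00352). Rabgap1l, a GTPase-activating protein for Rab proteins of membrane traffic, at chr1:160219174-160793211 on the minus strand, measured 106, 143 and 147 CPM in WNT, against 54.3, 61.9 and 57.1 CPM in CHIR. Its log2 fold change was 1.19 (SE 0.166, adjusted p = 0.00539). Of the 9 genes, 8 stayed called 3 against 3 when any 1 of the 6 libraries was left out. Shmt2 lost its call without WNT 1, WNT 2 or WNT 3 (highest adjusted p = 0.0766). In the fits against 1 CHIR library at a time, no gene of the 9 passed against CHIR 3 once a WNT library was left out.

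Canonical Wnt target genes did not move together. Of 30 such genes listed, 17 were tested, 2 rose and none fell, beside 0.873% and 1.05% of all genes. At an unadjusted p under 0.05 there were 9. In DESeq2 8 were called, and the fit of 16 libraries called 3 higher and 5 lower. Against CHIR 1 alone 4 were called higher and 2 lower, against CHIR 2 alone 2 higher, and against CHIR 3 alone 1 lower. Without any 1 WNT library 1 member was called, and without CHIR 1, CHIR 2 and CHIR 3 there were 1, 2 and 5. The median log2 fold change of the list was -0.15, beside -0.04 for all genes, and it was 0.40 against CHIR 1, -0.62 against CHIR 2 and 0.35 against CHIR 3. The genes that rose were Nkd1 and Bambi. Nkd1, which binds Dishevelled and dampens the Wnt signal, lay at chr8:88521354-88594884 on the plus strand. It measured 48.7, 80.9 and 79.4 CPM in WNT, against 4.81, 6.57 and 8.81 CPM in CHIR. The CHIR values were also below the 12.2 to 67.8 CPM of the other 12 libraries. The log2 fold change was 3.37 (SE 0.424, adjusted p = 0.00352), and Nkd1 stayed called without any 1 of the 6 libraries. Bambi, a pseudoreceptor that lowers TGF beta and BMP signals, measured 30.4, 29.5 and 31.6 CPM in WNT, against 11.4, 11.4 and 19.9 CPM in CHIR. Its log2 fold change was 1.10 (SE 0.219, adjusted p = 0.0201), and the call was lost without WNT 1, WNT 2, WNT 3 or CHIR 1 (highest adjusted p = 0.102). Against CHIR 1 and CHIR 2 alone both genes passed, and against CHIR 3 alone their adjusted p was 0.0797 for Nkd1 and 0.202 for Bambi.

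Another 4 of the 17 tested members were lower in every WNT library than in every CHIR library and did not pass the test of 3 against 3. In this list 4 members lay all above too, beside 13.5% of all tested genes each way. Axin2, the scaffold of the destruction complex that is itself a classical target, measured 0.384, 0.373 and 0.238 CPM in WNT, against 2.38, 9.43 and 1.55 CPM in CHIR. The groups did not overlap, CHIR 2 was several times above the other CHIR libraries, and the log2 fold change was -3.73 (SE 1.06, adjusted p = 0.0888). Lgr5, an R-spondin receptor and stem cell marker, measured 0, 0.216 and 0.310 CPM in WNT, against 7.74, 10.1 and 1.06 CPM in CHIR. CHIR 3 was the lowest CHIR library, and the log2 fold change was -5.13 (SE 1.35, adjusted p = 0.0647). Without CHIR 3 Lgr5 passed the test (adjusted p = 0.0296), and over the 16 libraries both Axin2 (adjusted p = 0.00247) and Lgr5 (adjusted p = 0.00289) passed. Against CHIR 1 alone Lgr5 passed (adjusted p = 0.0240) and Axin2 did not (adjusted p = 0.139), and neither passed against CHIR 2 or CHIR 3 alone. DESeq2 called Axin2 (adjusted p = 0.00262), Lgr5 (adjusted p = 0.00095) and Tcf7 (adjusted p = 0.0371). Tcf7, a TCF family factor, measured 1.18, 0.805 and 0.501 CPM in WNT, against 4.49, 8.49 and 1.25 CPM in CHIR (adjusted p = 0.188). Znrf3, a ubiquitin ligase that removes Frizzled receptors from the membrane, measured 11.2, 8.42 and 8.10 CPM in WNT, against 25.1, 21.8 and 15.2 CPM in CHIR (adjusted p = 0.0825). For both, the lowest CHIR value was in CHIR 3 and lay above the highest WNT value. Of these, Znrf3 passed against CHIR 1 alone (adjusted p = 0.0312).

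Sp5 and Rnf43 overlapped between the groups, with CHIR libraries on both sides of the WNT libraries. Sp5, a transcription factor induced by Wnt, measured 84.0, 78.7 and 79.8 CPM in WNT, against 34.0, 124 and 32.4 CPM in CHIR. CHIR 2 lay above and CHIR 1 and CHIR 3 below every WNT library (log2 fold change 0.35, adjusted p = 0.846). Rnf43, the partner of Znrf3, showed the same order, with 36.0, 45.1 and 41.8 CPM in WNT, against 13.3, 69.1 and 25.5 CPM in CHIR (adjusted p = 0.926). Wif1, a secreted Wnt inhibitor, was low, at 1.15, 0.550 and 0.858 CPM in WNT, against 0, 0.110 and 0.0235 CPM in CHIR (adjusted p = 0.0700), with no overlap. Notum, an enzyme that inactivates Wnt proteins, measured 0.384 to 0.644 CPM in WNT, against 0.164 to 0.658 CPM in CHIR (adjusted p = 0.903).

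**Figure D1:**
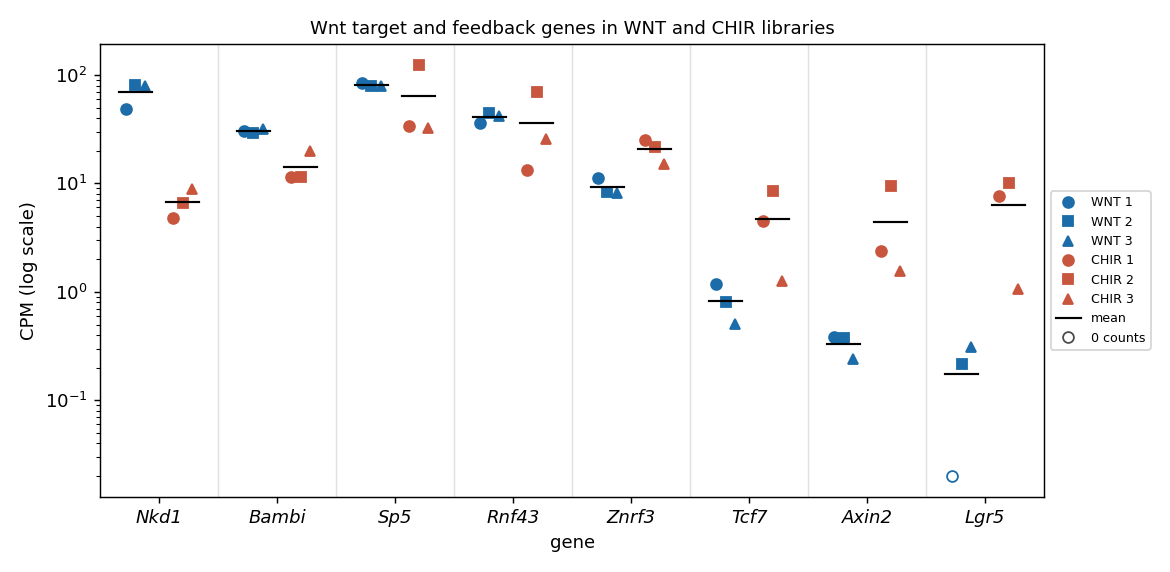
Level of 8 Wnt target and feedback genes in CPM on a log axis, in WNT (blue, left) and CHIR (red, right), with 1 marker per library, a bar at the mean of 3 and an open marker for 0 counts. Nkd1 and Bambi lie higher in all WNT libraries, Znrf3, Tcf7, Axin2 and Lgr5 lie lower in all of them, and Sp5 and Rnf43 overlap. Levels are not corrected for gene length and are to be read within a gene.

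The receptors and ligands of the pathway gave no call in edgeR's test of 3 against 3. Of 17 tested Frizzled, LRP, R-spondin receptor and TCF genes, 11 were fitted higher in WNT, the median log2 fold change was 0.22, and 2 had an unadjusted p under 0.05. None was called by DESeq2. Fzd5 measured 9.86, 11 and 10.9 CPM in WNT, against 5.06, 7.78 and 11.6 CPM in CHIR (log2 fold change 0.38, adjusted p = 0.568). Fzd6 measured 73.0, 70.3 and 62.1 CPM in WNT, against 48.1, 69.7 and 69.4 CPM in CHIR (log2 fold change 0.13, adjusted p = 0.927). Both groups overlapped for both receptors, and in each case CHIR 1 was the lowest library. Of 10 tested genes for Wnt ligands and their secretion none was called, 2 had an unadjusted p under 0.05, and 1 was called by DESeq2. Wnt3a, a ligand gene, measured 1.54, 0.373 and 1.36 CPM in WNT and had 0 counts in all 3 CHIR libraries (adjusted p = 0.0606). Among 14 genes of the destruction complex and Dishevelled, none was called by edgeR or DESeq2, and 1 had an unadjusted p under 0.05. Over the 16 libraries edgeR called 3 receptor, 2 ligand and 2 destruction complex genes, all higher. For CHIR 1 alone it called 3, 3 and 2, all higher and with Fzd5 among them (adjusted p = 0.0188), and against CHIR 2 or CHIR 3 alone none.

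The list with the lowest median fold change among those with several calls held genes for the synthesis of serine, glycine and proline and for the folate cycle that takes up one-carbon units. Of 12 tested genes, 8 fell, none rose and 10 had every WNT value below every CHIR value, beside 1.05% of all genes called lower and 13.5% all below. The median log2 fold change was -2.09, and it was -1.55 against CHIR 1, -1.82 against CHIR 2 and -2.57 against CHIR 3. Against 1 CHIR library alone, 6 passed for CHIR 1, 3 for CHIR 2 and 5 for CHIR 3, all lower. Over the 16 libraries 8 passed against each. The count was 2 without any 1 WNT library, and 6, 8 and 5 without CHIR 1, CHIR 2 and CHIR 3.

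Phgdh opens the branch from glycolysis to serine, and lay at chr3:98313170-98339990 on the minus strand. It measured 3.6, 3.0 and 2.69 CPM in WNT, against 16.9, 23.6 and 34.6 CPM in CHIR. The groups were far apart, with CHIR 3 highest, and the log2 fold change was -3.01 (SE 0.436, adjusted p = 0.00539, edgeR). Psat1, the next enzyme, at chr19:15904678-15947337 on the minus strand, measured 52.9, 45.9 and 41.5 CPM in WNT, against 274, 230 and 277 CPM in CHIR. Here the 3 CHIR libraries were close to each other, and the log2 fold change was -2.48 (SE 0.352, adjusted p = 0.00539). Both were called against each CHIR library alone. Psph, the last enzyme of the branch, measured 17.2, 16 and 15.5 CPM in WNT, against 65.3, 50.3 and 126 CPM in CHIR (log2 fold change -2.31, SE 0.546, adjusted p = 0.0426). Shmt2, which makes glycine from serine in mitochondria, at chr10:127517123-127522444 on the minus strand, measured 58.4, 52.5 and 50.5 CPM in WNT, against 146, 236 and 318 CPM in CHIR. Its log2 fold change was -2.12 (SE 0.356, adjusted p = 0.0100), and its cytosolic counterpart Shmt1 also fell (log2 fold change -1.41, adjusted p = 0.0349).

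Mthfd2, the mitochondrial folate enzyme, lay at chr6:83305691-83325908 on the minus strand. It measured 37.6, 36.9 and 30.4 CPM in WNT, against 169, 142 and 468 CPM in CHIR, with CHIR 3 highest. The log2 fold change was -2.89 (SE 0.586, adjusted p = 0.0208). Aldh18a1 and Pycr1, which open and close proline synthesis, measured 65.6, 67.8 and 59.5 CPM and 12.6, 14.0 and 12.8 CPM in WNT. In CHIR they measured 173, 245 and 396 CPM and 41.1, 32.0 and 95.0 CPM. Their log2 fold changes were -2.08 (SE 0.464, adjusted p = 0.0340) for Aldh18a1 and -2.09 (SE 0.45, adjusted p = 0.0275) for Pycr1. The 4 tested genes that did not pass were Aldh1l2, Mthfd1l, Mthfd1 and Mthfd2l, with adjusted p of 0.123 to 0.939. Mthfd1, the cytosolic folate enzyme, measured 309, 270 and 284 CPM in WNT, against 201, 287 and 255 CPM in CHIR. Phgdh and Psat1 stayed called without any 1 of the 6 libraries, and Mthfd2 and Shmt2 lost the call without any 1 WNT library.

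Asparagine synthetase, Asns, is a standard target of ATF4, the transcription factor of the integrated stress response, which cells start when amino acids run short or proteins misfold. Asns lay at chr6:7675169-7693254 on the minus strand. It measured 67.1, 68.8 and 60.9 CPM in WNT, against 360, 306 and 689 CPM in CHIR. No values overlapped, CHIR 3 was highest, and Asns fell by 2.78 on the log2 scale (SE 0.499, adjusted p = 0.0123). Its log2 fold change was -2.46 against CHIR 1, -2.22 against CHIR 2 and -3.39 against CHIR 3, and Asns was not among the genes that passed against each. The call was lost without WNT 1, WNT 2 or WNT 3 (highest adjusted p = 0.0860), and without CHIR 1 the list had 2 calls. Among the 20 tested genes of this response Asns was the only one called, 14 had an unadjusted p under 0.05, and 8 were called by DESeq2. Of the 20, 12 had every WNT value below every CHIR value, beside 13.5% of all genes, and the median log2 fold change was -1.92. The size followed the CHIR library, with a median of -0.60 against CHIR 1, -1.07 against CHIR 2 and -2.93 against CHIR 3. Against CHIR 1, 6 of the 20 were fitted higher in WNT and 14 lower, with Ddit4 among the higher (log2 fold change 2.36). Against CHIR 2, 1 was fitted higher and 19 lower, and against CHIR 3 all 20 were fitted lower. The summed level of the list was 1111, 1220 and 1114 CPM in WNT, against 1916, 2299 and 6211 CPM in CHIR.

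Of the members of the stress response that did not pass, Gdf15, Trib3, Ddit3 and Atf4 were highest in CHIR 3. Gdf15, a stress-induced secreted factor, measured 8.76, 6.20 and 7.99 CPM in WNT, against 70.4, 46.6 and 231 CPM in CHIR (log2 fold change -3.92, SE 1.06, adjusted p = 0.0703). Trib3, a pseudokinase induced by ATF4, measured 22.9, 47.0 and 24.1 CPM in WNT, against 75.1, 95.4 and 417 CPM in CHIR (adjusted p = 0.0728). Ddit3, the factor CHOP of prolonged stress, measured 18.2, 23.8 and 17.9 CPM in WNT, against 36.6, 31.1 and 184 CPM in CHIR (adjusted p = 0.197). Atf4 mRNA itself measured 81.1, 84.8 and 76.1 CPM in WNT, against 113, 198 and 321 CPM in CHIR (adjusted p = 0.142). In all 4 genes CHIR 1 and CHIR 2 were nearer to the WNT libraries than CHIR 3 was. The club and secretory markers summed to 989, 1030 and 1204 CPM in WNT, against 67.4, 60.2 and 1393 CPM in CHIR, and their part in the result was not tested.

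Aminoacyl-tRNA synthetase genes, whose products load amino acids onto tRNAs, were at a lower fitted level with Wnt in 19 of 20 cases. Of 20 tested cytosolic synthetase genes 7 fell, none rose and 18 had every WNT value below every CHIR value, beside 1.05% of all genes called lower and 13.5% all below. Taken alone, CHIR 1 gave 8 calls, CHIR 2 gave 1 and CHIR 3 gave 5, all lower. Qars, for glutamine, was the one with every WNT value above, at 59.6, 60.5 and 64.5 CPM in WNT, against 58.6, 52.2 and 50.3 CPM in CHIR (adjusted p = 0.663). The list's median log2 fold change was -1.30, and it was -0.85 against CHIR 1, -0.94 against CHIR 2 and -1.65 against CHIR 3. Those that fell were Tars, Cars, Nars, Yars, Mars, Rars and Eprs. Tars, for threonine, at chr15:11382301-11399665 on the minus strand, measured 84.4, 86.3 and 75.6 CPM in WNT, against 285, 189 and 245 CPM in CHIR (log2 fold change -1.55, SE 0.235, adjusted p = 0.00659). Cars, for cysteine, at chr7:143557230-143600090 on the minus strand, measured 58.5, 60.6 and 50.3 CPM in WNT, against 201, 154 and 239 CPM in CHIR (log2 fold change -1.81, SE 0.299, adjusted p = 0.00920). Nars, for asparagine, measured 143, 158 and 140 CPM in WNT, against 559, 365 and 763 CPM in CHIR (log2 fold change -1.94, SE 0.336, adjusted p = 0.0116). In these 3 genes WNT libraries differed little from each other and CHIR 2 was the lowest CHIR library. The count of 7 was 1, 1 and 0 without WNT 1, WNT 2 and WNT 3, and 6, 9 and 7 without CHIR 1, CHIR 2 and CHIR 3. Tars lost its call without WNT 3 alone (adjusted p = 0.0552).

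**Figure D2:**
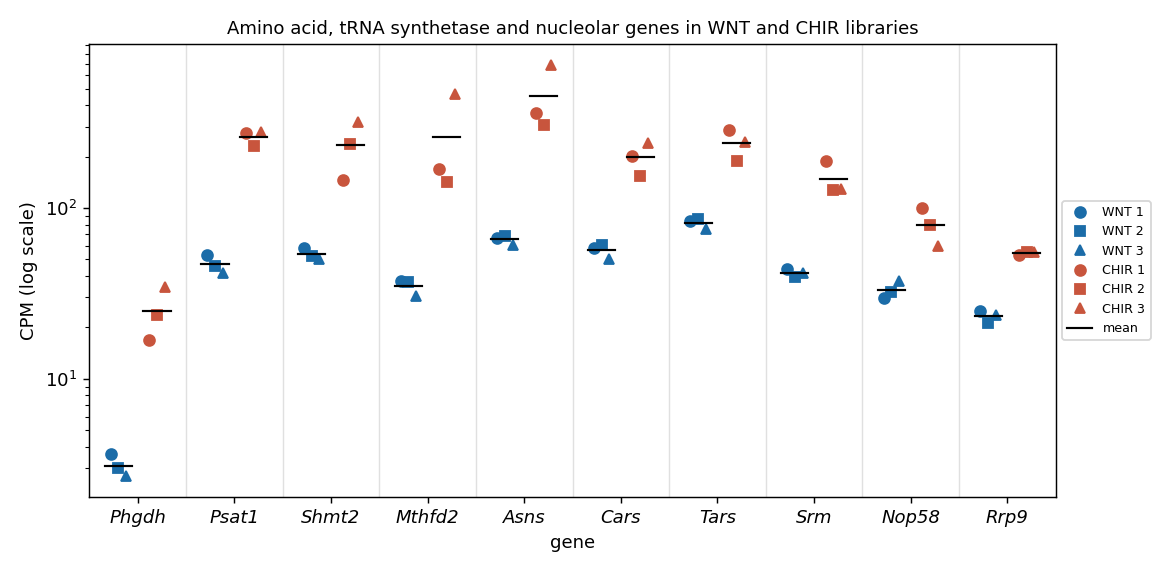
Level of 10 genes for amino acid synthesis (Phgdh, Psat1, Shmt2, Mthfd2, Asns), tRNA charging (Cars, Tars), polyamine synthesis (Srm) and ribosome building (Nop58, Rrp9), in CPM on a log axis. WNT libraries (blue) stand left of CHIR libraries (red), bars are means of 3, and in every gene the 3 WNT values lie below the 3 CHIR values. Levels are not corrected for gene length.

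Promoters of called genes were searched for the ATF4 element TGATGNAA on both strands, since Asns and the synthetases are known for it. The window was 250 bases before to 50 bases after the start in the RefSeq table of build GRCm38.p6, where 27025 genes had a promoter and 4.5% of them held the element. Among the genes called lower, it was found in Asns, in Tars and Yars of the 3 called synthetases with a promoter in the table, and in Pycr1 of 8 called serine, glycine and proline genes. Among all tested members it was found in 8 of 18 stress response genes and 5 of 12 synthetases. A match is a stretch of letters and not a shown binding site. The 4 promoters are given 5′ to 3′ on the strand of the gene, because they belong to genes that fell, with the match in capitals (in Tars it reads on the opposite strand). They lie at chr6:7693160-7693459 (minus) for Asns, chr11:120643699-120643998 (minus) for Pycr1, chr15:11399609-11399908 (minus) for Tars and chr4:129189653-129189952 (plus) for Yars.
Asns: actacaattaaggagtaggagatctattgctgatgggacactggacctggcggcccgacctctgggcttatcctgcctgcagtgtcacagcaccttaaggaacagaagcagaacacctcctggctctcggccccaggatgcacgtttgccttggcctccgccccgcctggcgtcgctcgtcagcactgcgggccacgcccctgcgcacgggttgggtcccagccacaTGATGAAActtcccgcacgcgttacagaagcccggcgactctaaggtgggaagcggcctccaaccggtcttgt
Pycr1: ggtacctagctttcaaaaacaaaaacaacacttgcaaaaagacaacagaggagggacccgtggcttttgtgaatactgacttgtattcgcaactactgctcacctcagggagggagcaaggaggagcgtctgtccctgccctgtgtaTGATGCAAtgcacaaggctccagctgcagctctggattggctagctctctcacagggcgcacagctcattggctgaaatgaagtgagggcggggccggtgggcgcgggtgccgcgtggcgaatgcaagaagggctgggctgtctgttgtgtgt
Tars: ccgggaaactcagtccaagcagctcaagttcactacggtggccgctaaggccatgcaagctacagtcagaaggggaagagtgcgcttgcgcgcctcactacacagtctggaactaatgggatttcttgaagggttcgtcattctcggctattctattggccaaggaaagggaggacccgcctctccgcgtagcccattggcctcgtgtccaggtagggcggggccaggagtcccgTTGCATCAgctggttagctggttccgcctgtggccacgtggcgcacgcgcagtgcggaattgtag
Yars: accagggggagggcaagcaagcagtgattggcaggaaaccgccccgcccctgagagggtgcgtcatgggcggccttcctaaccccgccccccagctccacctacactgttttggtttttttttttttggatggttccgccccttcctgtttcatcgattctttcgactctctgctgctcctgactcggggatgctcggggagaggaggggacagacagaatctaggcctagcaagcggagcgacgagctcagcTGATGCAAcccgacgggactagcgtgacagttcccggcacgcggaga

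Genes for building ribosomes had alike list medians against each CHIR library, while single members did not. Of 24 tested nucleolar and Myc-related genes 13 fell, none rose and 19 had every WNT value below every CHIR value, beside 1.05% of all genes called lower and 13.5% all below. The median log2 fold change was -0.98, and it was -0.99 against CHIR 1, -1.01 against CHIR 2 and -0.86 against CHIR 3. Alone, 12 passed against CHIR 1, 7 against CHIR 2 and 2 against CHIR 3, all lower. Nop58, a core protein of the snoRNA particles that modify ribosomal RNA, at chr1:59684971-59719044 on the plus strand, measured 29.6, 32.2 and 37.2 CPM in WNT, against 100, 79.1 and 60.3 CPM in CHIR. CHIR 3 was nearest to WNT here (log2 fold change -1.60 against CHIR 1, -1.26 against CHIR 2 and -0.87 against CHIR 3), and the overall log2 fold change was -1.27 (SE 0.193, adjusted p = 0.00659). Rrp9, which binds the U3 snoRNA, at chr9:106475963-106485424 on the plus strand, measured 25.0, 21.1 and 23.5 CPM in WNT, against 52.7, 55.5 and 55.2 CPM in CHIR (log2 fold change -1.23, SE 0.197, adjusted p = 0.00861). Wdr43, a processing factor for the small ribosomal subunit, at chr17:71615895-71659031 on the plus strand, measured 61.2, 60.3 and 60.0 CPM in WNT, against 163, 105 and 119 CPM in CHIR (log2 fold change -1.09, SE 0.18, adjusted p = 0.00918). The other 10 that fell were Wdr12, Mettl1, Nolc1, Ncl, Nop16, Gar1, Nop2, Dkc1, Nop56 and Rrs1, with log2 fold changes of -1.73 for Wdr12 to -0.90 for Nop2.

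Srm, the spermidine synthase of polyamine metabolism and a known Myc target, lay at chr4:148591503-148594993 on the plus strand. It measured 43.9, 39.6 and 41.6 CPM in WNT, against 188, 128 and 130 CPM in CHIR. Its log2 fold change was -1.83 (SE 0.249, adjusted p = 0.00539). Myc mRNA did not share the pattern. It measured 18.9, 24.4 and 24.1 CPM in WNT, against 22.6, 29.2 and 146 CPM in CHIR, so that the groups overlapped and CHIR 3 stood alone (log2 fold change -1.55, adjusted p = 0.192). The list's 13 calls became 4, 1 and 1 without WNT 1, WNT 2 and WNT 3, and 9, 12 and 12 without CHIR 1, CHIR 2 and CHIR 3. Nop58 stayed called in each of these 6 fits, and so did Srm, which is not a member of the list. The Myc-type E-box CACGTG was found in the promoters of 3 of 12 called genes of the list (Mettl1, Nop2 and Wdr43), beside 8.1% of all promoters in the table.

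Most genes typical of alveolar type 1 cells were fitted higher with Wnt. Of 21 tested, 3 rose, none fell, 20 were fitted higher and 15 had every WNT value above every CHIR value, beside 0.873% of all genes called higher and 13.5% all above. The median log2 fold change was 1.13, and it was 2.02 against CHIR 1, 1.32 against CHIR 2 and 0.84 against CHIR 3. Hopx, a homeodomain cofactor that marks type 1 cells, at chr5:77086988-77115121 on the minus strand, measured 233, 260 and 247 CPM in WNT, against 48.4, 37.8 and 66.6 CPM in CHIR. The groups were well apart, and the log2 fold change was 2.28 (SE 0.357, adjusted p = 0.00815). Ager, which encodes the surface receptor RAGE of type 1 cells, at chr17:34597862-34600936 on the plus strand, measured 2530, 2430 and 2550 CPM in WNT, against 572, 428 and 1010 CPM in CHIR. CHIR 3 was the highest CHIR library, and the log2 fold change was 1.90 (SE 0.453, adjusted p = 0.0441). Cryab, a small heat shock protein, at chr9:50751325-50756636 on the plus strand, measured 81.5, 95.8 and 94.8 CPM in WNT, against 25.9, 14.5 and 23.1 CPM in CHIR (log2 fold change 2.10, SE 0.321, adjusted p = 0.00720). Hopx and Cryab stayed called without any 1 of the 6 libraries, and Ager lost its call without each library except CHIR 3 (highest adjusted p = 0.155). The count of 3 was 7 without CHIR 3 and 2 without each of the others.

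Other type 1 genes were apart in level without passing. Cav1, the coat protein of caveolae, measured 42.3, 36.0 and 37.0 CPM in WNT, against 0.903, 3.28 and 2.00 CPM in CHIR (log2 fold change 4.21, SE 1.13, adjusted p = 0.0700). Clic5, a chloride channel family protein, measured 246, 297 and 271 CPM in WNT, against 22.8, 64.6 and 99.0 CPM in CHIR (adjusted p = 0.0683). Aqp5, the water channel of type 1 cells, overlapped, at 4260, 3570 and 3870 CPM in WNT, against 3260, 2580 and 5800 CPM in CHIR (adjusted p = 0.994). The summed level of the list was 12436, 12236 and 12429 CPM in WNT, against 5855, 6352 and 11090 CPM in CHIR. CHIR 3 thus lay close to the WNT libraries in sum. Against CHIR 1 alone 8 members passed, against CHIR 2 alone 2 and against CHIR 3 alone none, with 5 of the 21 fitted lower against CHIR 3. The adjusted p against CHIR 3 alone was 0.127 for Hopx, 0.352 for Ager and 0.0847 for Cryab. DESeq2 called 8 of the 21 and the fit of 16 libraries 14.

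Type 2 genes were split. Of 22 tested, 3 rose and 1 fell, and 13 had every WNT value above every CHIR value, with a median log2 fold change of 0.83. Over all genes 0.873% were called higher, 1.05% lower and 13.5% lay all above. Against CHIR 1 alone 9 were called higher and 2 lower, against CHIR 2 alone 2 higher, and against CHIR 3 alone none. Napsa, the protease that processes surfactant protein B, at chr7:44572380-44586862 on the plus strand, measured 2230, 2580 and 2630 CPM in WNT, against 438, 352 and 948 CPM in CHIR (log2 fold change 2.10, SE 0.329, adjusted p = 0.00815). Chil1, a secreted chitinase-like protein, at chr1:134182176-134190181 on the plus strand, measured 16800, 17200 and 17300 CPM in WNT, against 7100, 4770 and 6190 CPM in CHIR (log2 fold change 1.5, SE 0.269, adjusted p = 0.0123). S100g, a calcium-binding protein, at chrX:162961992-162964599 on the minus strand, measured 90.4, 72.5 and 78.8 CPM in WNT, against 13.4, 9.74 and 18 CPM in CHIR (log2 fold change 2.56, SE 0.471, adjusted p = 0.0135). All 3 were apart in every library. Lyz1, a lysozyme, went the other way, at 406, 219 and 275 CPM in WNT, against 1920, 1290 and 2200 CPM in CHIR (log2 fold change -2.59, SE 0.526, adjusted p = 0.0211). Reads of Lyz1 and its near copy Lyz2 may have been split in counting. Lyz2 measured 1600, 1420 and 1450 CPM in WNT, against 1350, 748 and 257 CPM in CHIR (adjusted p = 0.471). Napsa stayed called without any 1 of the 6 libraries. The count of 4 was 1 without any 1 WNT library, and 2, 4 and 6 without CHIR 1, CHIR 2 and CHIR 3. Chil1 lost its call without any 1 WNT library, and S100g and Lyz1 also without CHIR 1 (highest adjusted p of the 3, 0.133).

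The main surfactant genes did not pass. Sftpc measured 50600, 41200 and 42600 CPM in WNT, against 93200, 36700 and 97700 CPM in CHIR (log2 fold change -0.76, SE 0.486, adjusted p = 0.521). CHIR 2 lay below all WNT libraries and CHIR 1 and CHIR 3 about equally far above them. Sftpb measured 5960, 5750 and 6330 CPM in WNT, against 1030, 2760 and 6910 CPM in CHIR (adjusted p = 0.477). Nkx2-1, the lung lineage factor, measured 595, 553 and 616 CPM in WNT, against 101, 401 and 398 CPM in CHIR (adjusted p = 0.201).

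**Figure D3:**
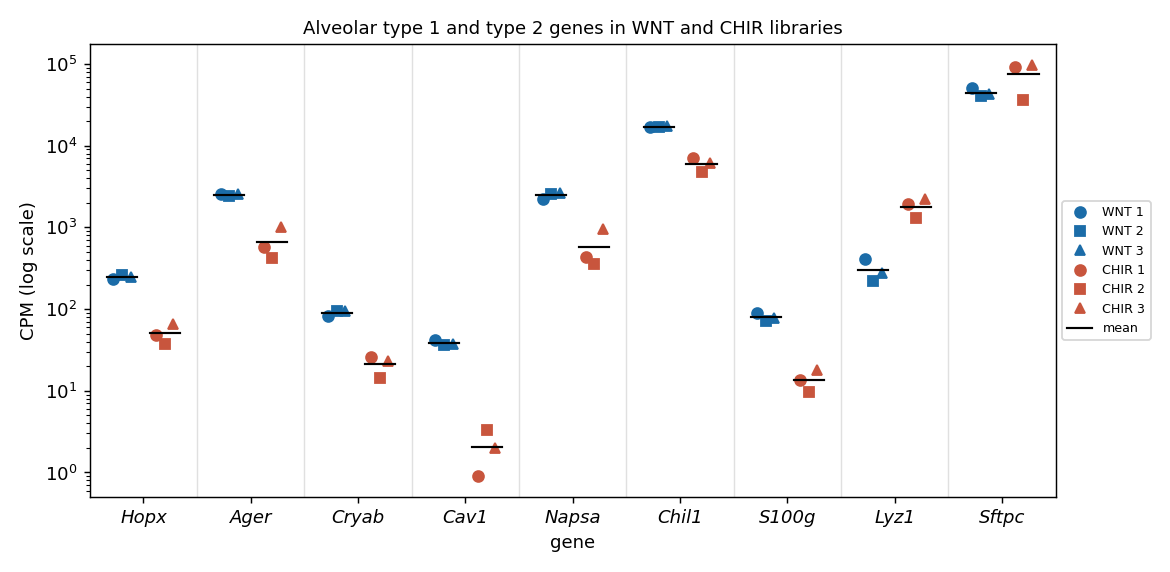
Level of 4 alveolar type 1 genes (Hopx, Ager, Cryab, Cav1) and 5 alveolar type 2 genes (Napsa, Chil1, S100g, Lyz1, Sftpc) in CPM on a log axis, WNT (blue) left of CHIR (red), with bars at the mean of 3. All but Lyz1 and Sftpc lie higher in every WNT library, Lyz1 lies lower in every one, and Sftpc overlaps. Levels are not corrected for gene length.

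The 10 largest rises, among called genes whose log2 CPM averaged 2 or more, began with Fxyd4, Sec14l3 and Mme. These 10 do not include the genes that passed against each CHIR library alone. Sec14l3, a lipid-binding protein, at chr11:4064841-4077736 on the plus strand, measured 68.3, 51.2 and 68.6 CPM in WNT, against 0.711, 0.970 and 2.89 CPM in CHIR (log2 fold change 5.36, SE 0.935, adjusted p = 0.0120). The other 12 libraries ran from 3.03 to 127 CPM, all above the CHIR libraries. Mme, the membrane peptidase neprilysin, at chr3:63241537-63386030 on the plus strand, measured 7.58, 13.9 and 15.0 CPM in WNT, against 0.246, 0.617 and 0.258 CPM in CHIR (log2 fold change 5.0, SE 1.05, adjusted p = 0.0244). Sod3, the extracellular superoxide dismutase, measured 24.1, 29.7 and 36.3 CPM in WNT, against 0.903, 0.772 and 5.10 CPM in CHIR (log2 fold change 3.73, SE 0.762, adjusted p = 0.0215). In these 3 genes the lowest WNT value was several times the highest CHIR value. Against CHIR 1, CHIR 2 and CHIR 3 in turn, the log2 fold change of Sec14l3 was 6.46, 6.01 and 4.44. That of Mme was 5.61, 4.29 and 5.54, and that of Sod3 was 5.05, 5.28 and 2.56. Tuba8, an alpha tubulin, measured 12.0, 8.50 and 10.9 CPM in WNT, against 1.12, 0.353 and 0.728 CPM in CHIR (log2 fold change 3.83, SE 0.534, adjusted p = 0.00539). Arhgap22 measured 7.22, 8.68 and 7.27 CPM in WNT, against 0.246, 0.727 and 0.916 CPM in CHIR (log2 fold change 3.60, SE 0.508, adjusted p = 0.00539). The other 5 were Fxyd4, a regulator of the sodium pump, Rasl11b, a Ras-like GTPase, Klk10, a secreted peptidase, Cyp2s1, a cytochrome P450, and Phactr1, a phosphatase and actin regulator. Their log2 fold changes were 5.94 for Fxyd4, 3.83 for Rasl11b, 3.76 for Klk10, 3.60 for Cyp2s1 and 3.39 for Phactr1. Of the 10, Tuba8 and Arhgap22 stayed called without any 1 of the 6 libraries. Rasl11b lost its call in each of these fits, and the other 7 lost theirs without WNT 3 and, among others, CHIR 1 (highest adjusted p of the 10, 0.164).

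Among the 10 largest falls, 3 fall outside the groups described so far. Ly6a, the surface protein Sca-1, at chr15:74994877-74998031 on the minus strand, measured 3.10, 2.55 and 3.22 CPM in WNT, against 37.2, 27.2 and 45.5 CPM in CHIR (log2 fold change -3.63, SE 0.735, adjusted p = 0.0208). Its call was lost without any 1 WNT library or CHIR 1 (highest adjusted p = 0.128). Susd3, a membrane protein with a sushi domain, at chr13:49230690-49248706 on the minus strand, measured 5.28, 2.79 and 4.10 CPM in WNT, against 64.3, 37.5 and 15.2 CPM in CHIR. Its log2 fold change was -3.26 (SE 0.463, adjusted p = 0.00539), and the call held without any 1 of the 6 libraries. Bex2, of the brain-expressed X-linked family, measured 5.09, 2.96 and 3.22 CPM in WNT, against 31.3, 23.6 and 16.4 CPM in CHIR (log2 fold change -2.66, SE 0.496, adjusted p = 0.0141). Its call was lost without any 1 WNT library (highest adjusted p = 0.0984). CHIR 3 was the lowest CHIR library for Susd3 and Bex2 and the highest for Ly6a. Against CHIR 1, CHIR 2 and CHIR 3 in turn, the log2 fold change of Ly6a was -3.65, -3.20 and -3.94. That of Susd3 was -3.99, -3.21 and -1.90, and that of Bex2 was -3.06, -2.65 and -2.13. These 3 genes were not among those that passed against each CHIR library alone.

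Signalling lists gave few calls. Of 22 tested NF-kB targets and epithelial chemokines 4 rose and none fell, beside 0.873% and 1.05% of all genes, with a median log2 fold change of 0.44. The fit of 16 libraries called 7 higher and 3 lower. Lcn2, an iron-scavenging secreted protein, measured 2550, 2680 and 2960 CPM in WNT, against 854, 1420 and 1280 CPM in CHIR (log2 fold change 1.21, SE 0.247, adjusted p = 0.0211). Birc3, an inhibitor of apoptosis, measured 93.9, 103 and 94.4 CPM in WNT, against 54.4, 59.5 and 45.1 CPM in CHIR (log2 fold change 0.87, SE 0.162, adjusted p = 0.0140). The chemokines Cxcl5 (log2 fold change 0.96) and Cxcl3 (log2 fold change 1.08) also rose. All 4 calls were lost without any 1 WNT library, and without CHIR 1 the count was 1. Of 16 TGF beta targets 2 rose, with a median of 1.02. Pmepa1, which damps the TGF beta signal, measured 27.6, 24.6 and 30.7 CPM in WNT, against 11.4, 11.6 and 10.4 CPM in CHIR (log2 fold change 1.31, SE 0.218, adjusted p = 0.00920). Cdkn2b, a cell cycle inhibitor, measured 128, 145 and 137 CPM in WNT, against 61.2, 53.8 and 64.6 CPM in CHIR (log2 fold change 1.19, SE 0.241, adjusted p = 0.0208). The 3 CHIR libraries were close to each other for both. Pmepa1 lost its call only without WNT 3 (adjusted p = 0.0682), and Cdkn2b lost it without each library but CHIR 3.

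Single genes passed in 7 further lists, beside 0.873% of all genes called higher and 1.05% called lower. Fabp5, a fatty acid binding protein, was the one called of 18 genes for fatty acids and surfactant lipids (list median 0.71). It measured 509, 437 and 468 CPM in WNT, against 142, 207 and 220 CPM in CHIR (log2 fold change 1.31, SE 0.203, adjusted p = 0.00720), and it held without any 1 of the 6 libraries. Slc4a5, a bicarbonate transporter, was the one of 14 ion and fluid transport genes (list median 0.96). It measured 7.06, 6.24 and 5.65 CPM in WNT, against 0.547, 1.06 and 0.752 CPM in CHIR (log2 fold change 3.0, SE 0.618, adjusted p = 0.0226). H2-T23, a nonclassical MHC class I gene, rose among 13 MHC genes (log2 fold change 1.09, adjusted p = 0.0350), and Btg2, an antiproliferative p53 target, among 16 p53 targets (log2 fold change 1.06, adjusted p = 0.0232). Gla, the lysosomal alpha-galactosidase, fell among 21 lysosome and autophagy genes (log2 fold change -1.42, adjusted p = 0.0441). The other 2 were Bambi, the one called of 10 BMP targets, and Asns. Without CHIR 3, 6 ion transport genes and 3 p53 targets were called. Slc4a5, H2-T23, Btg2 and Gla each lost the call without any 1 WNT library or CHIR 1.

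Proliferation genes changed side with the CHIR library. Mki67, a marker of dividing cells, measured 66.0, 63.7 and 67.3 CPM in WNT, against 207, 189 and 15.3 CPM in CHIR. CHIR 1 and CHIR 2 lay above the WNT libraries and CHIR 3 lay below them (log2 fold change -1.06, SE 0.725, adjusted p = 0.556). All 22 G2/M genes were fitted lower in WNT against CHIR 1 and CHIR 2 and higher against CHIR 3. Their median log2 fold change was -1.77 against CHIR 1 and -1.48 against CHIR 2, and 1.46 against CHIR 3. The 22 G1/S genes had medians of -1.19, -0.91 and 1.12. None of the 44 was called by edgeR or DESeq2 3 against 3, where 3 G2/M genes and no G1/S gene had an unadjusted p under 0.05. Without CHIR 3, 3 of the G2/M and 1 of the G1/S genes were called. The summed G2/M level was 1186, 1006 and 1007 CPM in WNT, against 3461, 2860 and 388 CPM in CHIR.

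Markers of club and other secretory airway cells also set CHIR 3 apart from CHIR 1 and CHIR 2. In their summed level over 12 tested and 2 untested genes, CHIR 1 and CHIR 2 lay far below the WNT libraries and CHIR 3 above them. Cyp2f2 and Hp made up most of this sum in WNT. Cyp2f2, a cytochrome P450 of club cells, measured 482, 484 and 522 CPM in WNT, against 44.9, 46.0 and 686 CPM in CHIR. Hp, haptoglobin, measured 456, 507 and 631 CPM in WNT, against 17.8, 9.24 and 377 CPM in CHIR. The defining club cell gene Scgb1a1 measured 0.408, 0.353 and 0.667 CPM in WNT, against 0.246, 0.0882 and 50.7 CPM in CHIR (log2 fold change -5.16, SE 2.45, adjusted p = 0.350). Bpifa1, an airway secretory protein, had 0 counts in all 3 WNT libraries, against 0.246, 0.0661 and 85.2 CPM in CHIR. CHIR 3 was thus the one library of the 6 with more than 1 CPM of either gene. None of the 12 was called 3 against 3 by edgeR or DESeq2, and 2 had an unadjusted p under 0.05 in edgeR. DESeq2 gave no adjusted p for Scgb1a1. Over the 16 libraries edgeR called 3 lower, with Scgb1a1 among them (adjusted p = 0.0434). Without CHIR 3 edgeR called 2 members, and the log2 fold change of Scgb1a1 was then 1.53. The list's median log2 fold change was 2.20 against CHIR 1, 2.77 against CHIR 2 and -2.13 against CHIR 3. Of the 12, 9 were fitted higher against CHIR 1, 9 against CHIR 2 and 3 against CHIR 3. The part of these airway genes in the differences from CHIR 3 was not tested.

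**Figure D4:**
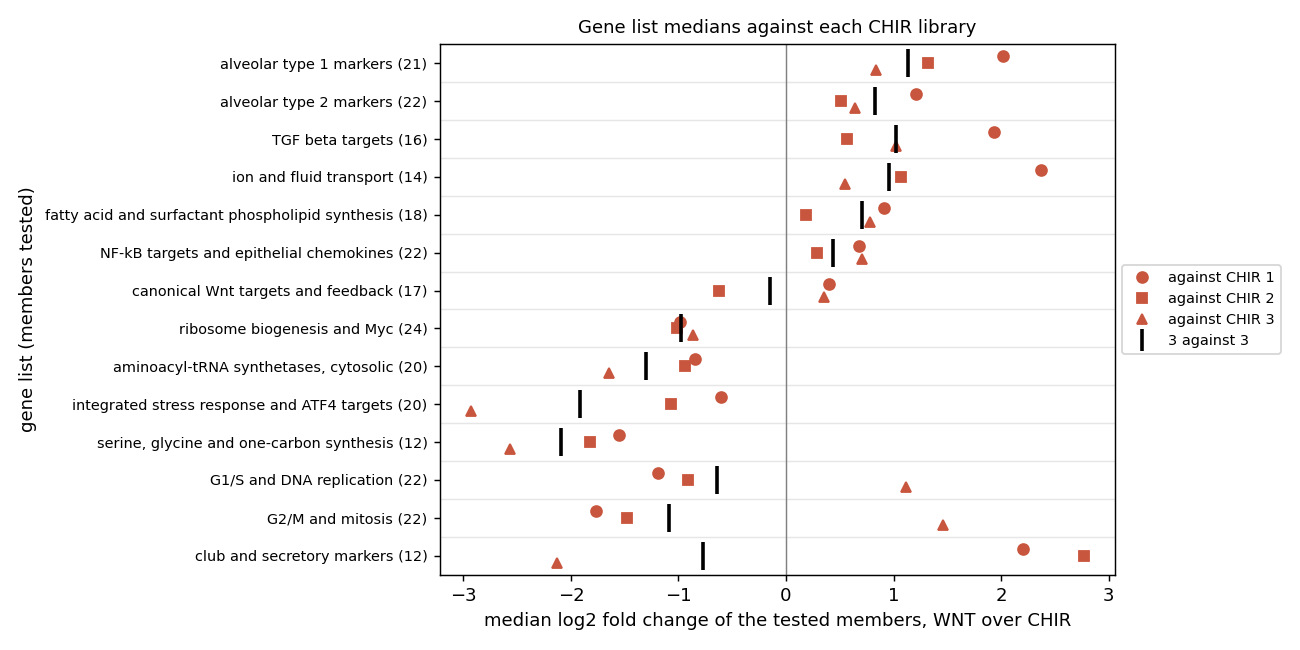
Median log2 fold change, WNT over CHIR, of the tested members of 14 gene lists (number tested in brackets), against CHIR 1 (circle), CHIR 2 (square) and CHIR 3 (triangle) alone and for 3 against 3 (black bar). The 2 alveolar lists and the TGF beta, ion transport, fatty acid and NF-kB lists are above 0 against each CHIR library. The ribosome, synthetase, stress response and serine lists are below 0 against each. Both cell cycle lists and the club list change sign at CHIR 3, and the canonical Wnt list does so at CHIR 2.

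Of the 41 gene lists, 26 had no member called 3 against 3. Of 321 genes tested in them, 39 had an unadjusted p under 0.05, beside 2397 of all 16497 tested genes. Among these 26 were the cell cycle, club, receptor, ligand and destruction complex lists. The others included the transitional epithelial state (median log2 fold change -0.15), endoplasmic reticulum chaperones (-0.27), cholesterol synthesis (0.03), YAP and TEAD targets (0.60) and ERK feedback (0.34). They also covered the interferon response (0.31), hypoxia and glycolysis (0.30), glycogen metabolism (0.23), mitochondrially encoded genes (0.17), NRF2 targets (-0.29), claudins (0.39) and planar polarity (0.34). Of cell type lists, ciliated markers had a median of -0.16, basal -1.16, neuroendocrine -0.38, mesenchymal 0.38, haematopoietic 0.32, endothelial -0.08, gut -0.85 and sex-linked genes -0.07. The cell type lists among them, other than the club list, had 1 to 8 tested genes each.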

How the data were processed

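Total RNA was isolated with a column kit, and 0.1 µg per library entered a stranded total RNA preparation, per the labels' protocols. Reads were aligned with GSNAP to GRCm38, per the submitters' processing notes. Tool versions, the gene annotation, the counter and any strand setting were not given in the sources used here. Reads of overlapping or antisense genes therefore cannot be told apart. The deposited counts are whole numbers of reads over the exons of each gene, per the file headers, and were not normalised by the authors. The RPKM values beside them were computed by the authors and are not printed here.

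Of 52636 listed genes, filterByExpr by group removed 36139 and left 16497. With edgeR 4.0.16 in R 4.3.3, TMM factors were computed and 1 robust quasi-likelihood model without covariates was fitted to the 18 libraries in 6 groups. For comparisons with 1 CHIR library, each CHIR library was a level of its own. The threshold was a Benjamini-Hochberg adjusted p under 0.05 over all tested genes. SE was the absolute log2 fold change over the root of F, and CPM use TMM-scaled totals. No pair of replicate libraries was near sampling noise (the chi-square over its degrees of freedom was 13.3 to 30.6 in WNT and 348 to 456 in CHIR). Symbols and coordinates are from GENCODE M21 on GRCm38, 1-based.

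The comparison, the 41 gene lists and the genes named were chosen with earlier results of these data known. Named were the called genes with the 10 highest and 10 lowest log2 fold changes 3 against 3. Up to 8 each way that were called against each CHIR library alone were added. For these, log2 CPM averaged 2 or more and the symbol was not provisional. Up to 3 called genes per list were also named, without these limits. Always named were Axin2, Lgr5, Nkd1, Sp5, Tcf7, Notum, Fzd5, Fzd6, Sftpc, Hopx, Ager, Asns, Phgdh, Scgb1a1 and Mki67. Other list members were named after their values were seen. Alternatives were RLE factors, no filter, DESeq2 1.42.0, only the 6 libraries, 16 libraries, the replicate block and leaving out each library.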

Additional observations from a re-analysis of the deposited data

How the results depend on the processing

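The number of genes called for WNT against CHIR was 317 and ran from 29 to 677 with 1 library left out. It was 307 with RLE factors (304 shared with the 317), 173 with no filter (169 shared), 1091 with DESeq2 and 2599 over 16 libraries (both included all 317), and 109 with only the WNT and CHIR libraries (73 shared). Against CHIR 1 alone it was 2784, and 1842 with no filter, 8925 with only these 6 libraries and 9143 over 16. Against CHIR 2 alone it was 120, and 47, 4681 and 4716 in the same 3 settings, 633 with DESeq2, and 20 to 113 with 1 library left out. Against CHIR 3 alone it was 52, and 18, 6641 and 6848 in those settings, 1069 with DESeq2, and 0 to 50 with 1 library left out. Called against each were 9 genes, and 2 with no filter, 169 with DESeq2, 1503 with only these 6 libraries, 1423 over 16, and 0 with any 1 WNT library left out. With only these 6 libraries, the spread in the fits against 1 CHIR library came from the WNT libraries alone. The 3 WNT and 3 CHIR libraries share replicate numbers. Same-numbered libraries correlated at 0.104, 0.073 and 0.0792 in their deviations, each best with its own number, which is a hint from the data and not from the labels. With the replicate block 198 genes were called (197 shared), 12 against CHIR 2 alone, 0 against CHIR 3 alone (2376 at an unadjusted p under 0.05) and 0 against each. With 1 library left out, the log2 fold change of Fzd6 ran from -0.02 (without CHIR 1) to 0.24, and that of Scgb1a1 from -5.73 to 1.53 (without CHIR 3). For these counts and both genes the cause was not tested. RLE factors moved the median log2 fold change by 0.021. Of 59 named genes, 49 were called and 17 of them stayed so without any 1 library. With 3 libraries a group and CHIR libraries this far apart, differences that miss the threshold are not shown to be absent.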
